A study of Mus musculus with 2 samples.

Results

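The genes described here are the D-type cyclins (Ccnd1, Ccnd2, Ccnd3), the kinases they activate (Cdk4, Cdk6), CDK inhibitors of the CIP/KIP family (Cdkn1a, Cdkn1b) and of the INK4 family (Cdkn2c, Cdkn2d), and Rb1, the gene of the retinoblastoma protein. They were chosen by name, as 10 of the 23462 genes that the array's transcript accessions matched in RefSeq, and every non-control probe of each was read, 18 probes in all. RNA came from 2 cultures of CD8 T cells that had been isolated as naive cells (CD44 low, CD62L high) from spleens of C57BL/6 mice, whose age, sex and number are not given in the sources used here. The tested culture received prednisolone, a synthetic glucocorticoid, at 1 µM, and the other received vehicle. Both were stimulated for 2 days with plate-bound anti-TCR-β (3 µg/ml) and anti-CD28 (1 µg/ml) antibodies plus interleukin-2 (10 ng/ml), and then kept in interleukin-2 on a new plate for 3 days. The drug is described only for the stimulation, and RNA was taken on day 5. Each culture gave 1 Agilent 1-colour array (100 ng of RNA, dye Cy3), so no difference was tested and no spread between cultures is known.

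Cells pass from G1 into S phase when D cyclins pair with CDK4 or CDK6 and phosphorylate the retinoblastoma protein, which then releases E2F transcription factors. INK4 proteins bind CDK4 and CDK6 and block their pairing with D cyclins, whereas CIP/KIP proteins bind cyclin-CDK complexes and inhibit those that hold CDK2. In T cells, receptor and interleukin-2 signals raise D cyclins and remove p27, the product of Cdkn1b, before division. Cyclin D2 and D3 are the D cyclins that lymphocytes mainly use.

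In the prednisolone culture Ccnd2 was 2.64-fold higher, while the inhibitor gene Cdkn1b was 2.03-fold lower and Rb1 was 2.02-fold lower than in the vehicle culture. The other 6 members with a value lay within 2-fold: Ccnd3, Cdk4, Cdk6, Cdkn1a, Cdkn2c and Cdkn2d. Ccnd1 did not clear the background on either array. Thus 1 of 9 members with a value (11.1%) was higher by at least 2-fold, and 2 (22.2%) were lower by at least 2-fold. Of the 13135 genes of the array with a value, 6.87% were higher and 7.82% lower by that much. The 1 higher member is thus near the background share, and the lower count rests on Cdkn1b and Rb1, which both lie at the 2-fold limit. The median difference of the 9 members was −0.13 on the log2 scale, against 0.0014 for all 11968 genes measured on both arrays.

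Values below are processed signals in intensity units, as the scanner software gave them, followed by the log2 difference, prednisolone minus vehicle, after each array was scaled to its 75th percentile (386.9 for prednisolone and 400.4 for vehicle). The ± is the software's own error for both arrays. For the brighter spots it was a fixed share of the signal, and it holds no spread between cultures. For a gene with several probes, the probes' errors were combined as independent, so the ± leaves out any gap between probes. Over 281 probes printed repeatedly on each array, the median SD of the difference between spots was 0.027. The bulk RNA does not tell a smaller share of cells with a transcript from less of it per cell. Of the 10 CD8 T cell markers, all 10 were well above background on both arrays, with a summed signal of 326460 with prednisolone and 394452 with vehicle. Of the 5 B cell markers, 2 (Cd79b and Pax5) were well above background on both arrays, Ms4a1 and Cd79a were on neither, and the list summed to 1646 with prednisolone and 1098 with vehicle. Of the 6 myeloid markers, 3 were above it with prednisolone and 2 with vehicle, Lyz2, Adgre1 and Itgax were on neither, and the sums were 3780 with prednisolone and 3547 with vehicle. Of the 3 NK cell markers, 2 were above it and Ncr1 was not, with sums of 66.0 with prednisolone and 68.1 with vehicle. Of the 3 CD4 T cell markers, Cd4 and Foxp3 were above it on both arrays, with sums of 718.7 with prednisolone and 738.9 with vehicle. The 3 erythroid markers summed to 1413 with prednisolone and 99.4 with vehicle, nearly all of it from the haemoglobin gene Hba-a1, and the part of such cells in the differences below was not tested.

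**Figure D1:**
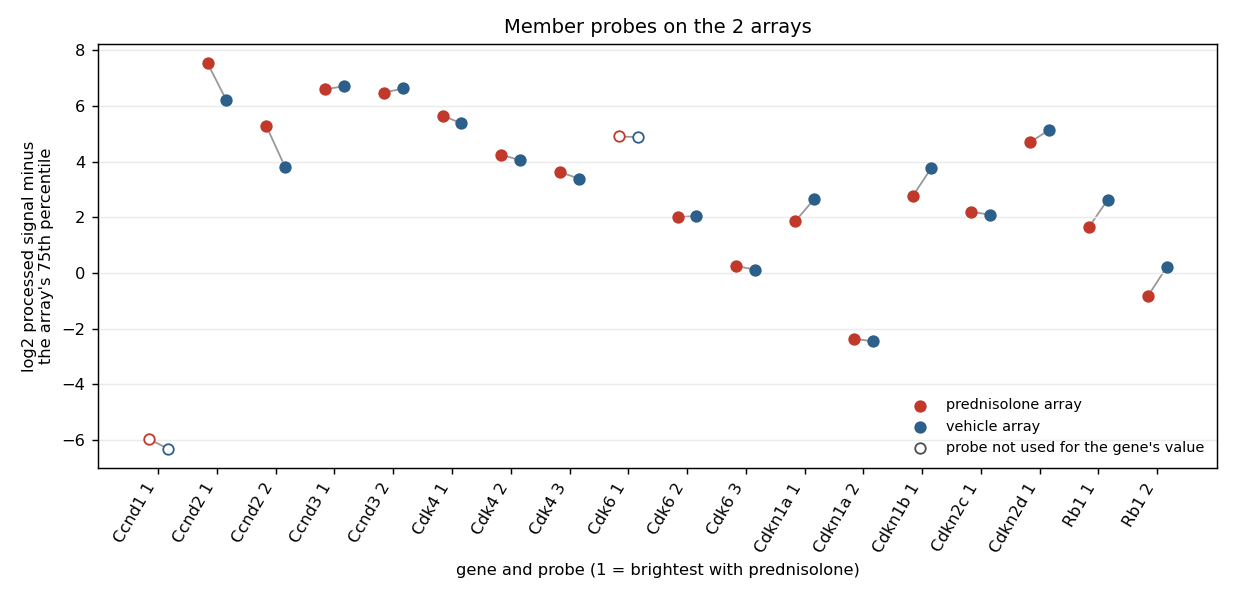
Each probe of the 10 genes on the prednisolone array (red, left) and the vehicle array (blue, right), as scaled log2 signal (log2 units, 0 at the array's 75th percentile), with 1 array per culture and lines joining the same probe. Both Ccnd2 probes are higher with prednisolone, the Cdkn1b probe and both Rb1 probes are lower, and the open symbols of Ccnd1 and of 1 Cdk6 probe were not used.

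Among the D cyclins, cyclin D2 is induced in T cells by receptor and interleukin-2 signals. The brighter Ccnd2 probe had a signal of 71907 with prednisolone and 29775 with vehicle. The dimmer probe, to the same transcript, had 15075 with prednisolone and 5610 with vehicle. Both probes were thus brighter on the prednisolone array, by 1.32 ± 0.20 and 1.48 ± 0.20, and the gene's value was 1.40 ± 0.14. Of all genes measured on both arrays, 2.78% had a higher difference than Ccnd2. Its value stayed at least 2-fold higher under every one of 13 other settings, between 1.32 and 1.64. The settings for flags, the filter on dim probes and the median probe could not change it and returned 1.40.

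Cyclin D3 is the D cyclin that immature mouse thymocytes need to expand. Its brighter probe had 37497 with prednisolone and 42060 with vehicle, and its dimmer probe had 34488 with prednisolone and 39712 with vehicle. Both Ccnd3 probes were slightly dimmer on the prednisolone array, and the gene's difference of −0.13 ± 0.14 was smaller than its error. It turned to 0.10 when arrays were scaled on the spike-in controls, which adds 0.24 to every difference. The difference of Ccnd2 exceeded that of Ccnd3 by 1.53 ± 0.20, a contrast that no constant scaling of an array can change, and by 1.51 after another background correction (normexp). That ± is the software's error alone, so the contrast holds for these arrays and was not tested between cultures. Ccnd1, whose product is the main D cyclin of many non-lymphoid cells, had a signal of 6.20 with prednisolone and 5.04 with vehicle, where the lowest signals well above background were 11.7 with prednisolone and 12.8 with vehicle. It has no value here, and a low level is not told from absence.

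The kinase genes differed little. CDK4 is the D cyclin partner present in most dividing cells. Its 3 probes had signals of 19467, 7334 and 4773 with prednisolone, against 16659, 6644 and 4203 with vehicle. All 3 were a little brighter on the prednisolone array, by 0.19 to 0.27, and the gene's difference was 0.23 ± 0.12, a 1.18-fold higher level. It was above 0 under all 13 other settings (0.17 to 0.47), and 63.6% of all genes lay farther from 0.

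CDK6 is the related kinase prominent in blood cells. Its 2 probes in use had 1551 and 460.1 with prednisolone, against 1656 and 433.8 with vehicle. These probes went opposite ways, at −0.04 and 0.13, and the gene's difference of 0.05 ± 0.14 lay within its error. It was below 0 without scaling (−0.0045) and with the brightest probe in use alone (−0.04). The remaining Cdk6 probe carried an outlier flag of its local background on both arrays and was not used. It was the brightest of the 3, with 11595 with prednisolone and 11835 with vehicle, a difference of 0.02 ± 0.20.

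The CIP/KIP inhibitors gave 1 gene at the 2-fold limit and 1 whose probes disagreed. Cdkn1b encodes p27, which holds resting T cells in G1. Its only probe had a signal of 2624 with prednisolone and 5516 with vehicle, a difference of −1.02 ± 0.20. It was lower under all 13 other settings, between −1.08 and −0.78, but at least 2-fold lower under 9 of them. The settings for flags, the filter on dim probes and the choice of probe could not move this single probe and returned −1.02. Of the rest, it stayed 2-fold lower with normexp, without scaling and with quantile normalization. It was within 2-fold with local background subtracted and with median, spike-in (−0.78) or the authors' scaling. A 95% interval from the software's error runs from −1.42 to −0.62, so the 2-fold limit lies inside it. Of all genes, 6.28% had a lower difference than Cdkn1b.

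Cdkn1a encodes p21, a target of p53 that also binds D cyclin complexes. The probe to transcript NM_007669 had a signal of 1398 with prednisolone and 2506 with vehicle. The probe to transcript NM_001111099 had 75.4 with prednisolone and 72.9 with vehicle. The first was lower with prednisolone, by a difference of −0.79 ± 0.20, and the second, much closer to background, was at 0.10 ± 0.22. The gap between them was 0.89, and 5.75% of the 3912 genes with several measured probes had a larger one. The gap was 0.04 to 0.18 for the other members with several probes in use (0.05 for Rb1, 0.15 for Ccnd2). The mean over both Cdkn1a probes was −0.35 ± 0.15, and this ± leaves out the gap between them. The gene was within 2-fold under all 13 other settings (−0.79 to −0.11).

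The promoter windows of Cdkn1b and Cdkn1a are shown because these CIP/KIP genes were the inhibitors among the members with a probe farthest below 0, and that of Cdk4 for contrast, since its level differed little. By gene value Cdkn2d (−0.43), whose window is not printed, lay below Cdkn1a (−0.35). RefSeq windows of build GRCm38.p6 were available for 7 of the 10 members (10 windows, of 250 bases before to 50 bases after an annotated start). Ccnd1, Ccnd2 and Rb1 had none. Capitals mark every match, on either strand, to the 11 motifs searched: the glucocorticoid receptor palindrome (AGAACA and TGTTCT, 3 bases apart) and its half-site (AGAACA), FOXO (GTAAACA), E2F (TTTGGCGC and TTTCCCGC), the E-box of MYC and MAX (CACGTG), the CCAAT box (CCAAT), the GC box (GGGCGG), the TATA box (TATAAA), STAT (TTCNNNGAA) and the p53 half-site. The half-site lies within the palindrome, and neighbouring matches can overlap.
Cdkn1b, chr6:134920151-134920450, plus strand: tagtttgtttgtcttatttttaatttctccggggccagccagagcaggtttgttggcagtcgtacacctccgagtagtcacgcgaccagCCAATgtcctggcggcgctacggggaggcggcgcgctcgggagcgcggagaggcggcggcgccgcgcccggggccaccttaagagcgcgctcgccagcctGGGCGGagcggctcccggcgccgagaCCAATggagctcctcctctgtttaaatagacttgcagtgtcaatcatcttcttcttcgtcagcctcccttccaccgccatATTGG
Cdkn1a, upstream start, chr17:29090729-29091028, plus strand: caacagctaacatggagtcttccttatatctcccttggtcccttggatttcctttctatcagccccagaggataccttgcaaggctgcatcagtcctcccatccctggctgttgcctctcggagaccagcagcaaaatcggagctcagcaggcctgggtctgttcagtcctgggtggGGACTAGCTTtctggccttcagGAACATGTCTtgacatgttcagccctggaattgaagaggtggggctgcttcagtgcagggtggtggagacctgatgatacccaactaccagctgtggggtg
Cdkn1a, downstream start, chr17:29093519-29093818, plus strand: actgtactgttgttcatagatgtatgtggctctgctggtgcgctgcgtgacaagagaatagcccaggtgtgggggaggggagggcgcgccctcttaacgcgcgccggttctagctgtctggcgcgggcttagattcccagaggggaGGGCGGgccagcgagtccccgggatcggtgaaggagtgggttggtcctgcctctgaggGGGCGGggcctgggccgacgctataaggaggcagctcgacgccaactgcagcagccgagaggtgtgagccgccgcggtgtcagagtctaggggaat
Cdk4, chr10:127063285-127063584, plus strand: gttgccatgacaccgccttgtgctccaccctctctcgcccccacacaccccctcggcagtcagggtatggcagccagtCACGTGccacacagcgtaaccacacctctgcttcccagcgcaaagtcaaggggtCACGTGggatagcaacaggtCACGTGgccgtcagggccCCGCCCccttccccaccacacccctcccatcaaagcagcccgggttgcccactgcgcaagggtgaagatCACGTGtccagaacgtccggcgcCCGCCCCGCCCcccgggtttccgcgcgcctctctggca

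In these windows Cdkn1b held 3 CCAAT boxes, as many as or more than which were found in 3.37% of 32851 RefSeq windows, and 1 GC box (35.7% of windows). The upstream Cdkn1a window held 2 p53 half-sites, which 0.36% of windows matched or exceeded, and the downstream one held 2 GC boxes (19.5%). Cdk4 held 4 E-boxes, as did or exceeded 8 of all windows (0.024%), and 3 GC boxes. None of the 10 member windows held the glucocorticoid receptor palindrome, which 3 of all 32851 windows hold. Its half-site was in windows of Cdk6 and Cdkn2c, where 19.0% of all windows have it. The only FOXO match was in the upstream Ccnd3 window. E2F and STAT motifs as spelled here were in none of the 10. These are matches of letters in short windows and say nothing of binding, and which Cdkn1a transcript starts at which window was not determined.

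The INK4 inhibitors lay within 2-fold. Cdkn2c encodes p18, which restrains lymphocyte proliferation in mice. Its probe had 1775 with prednisolone and 1709 with vehicle, a difference of 0.10 ± 0.20 that lay within its error. Cdkn2d encodes p19-INK4d, and its probe had 10096 with prednisolone and 14088 with vehicle. The lower signal with prednisolone was a difference of −0.43 ± 0.20, or 1.35-fold lower, and it was −0.48 to −0.19 under the 13 other settings. The difference of Cdkn1b was below that of Cdkn2c by −1.13 ± 0.29, whatever the constant used to scale the arrays.

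Rb1 encodes the pocket protein that D cyclin kinases inactivate. Its brighter probe had 1216 with prednisolone and 2491 with vehicle, and its dimmer probe had 216.7 with prednisolone and 460.7 with vehicle. Both probes were dimmer on the prednisolone array by nearly the same amount, −0.98 ± 0.20 and −1.04 ± 0.20. The gene's value was −1.01 ± 0.14, with a 95% interval from the software's error of −1.30 to −0.73. It was lower under all 13 other settings (−1.06 to −0.77) and at least 2-fold lower under 7 of them. The settings for flags, the filter on dim probes and the median probe could not change it and returned −1.01. Of the rest, only no scaling and quantile normalization kept it at least 2-fold lower. The difference of Ccnd2 exceeded that of Rb1 by 2.41 ± 0.20, or 2.23 after normexp, and that of Cdkn1b by 2.42 ± 0.25, or 2.37 after normexp.

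**Figure D2:**
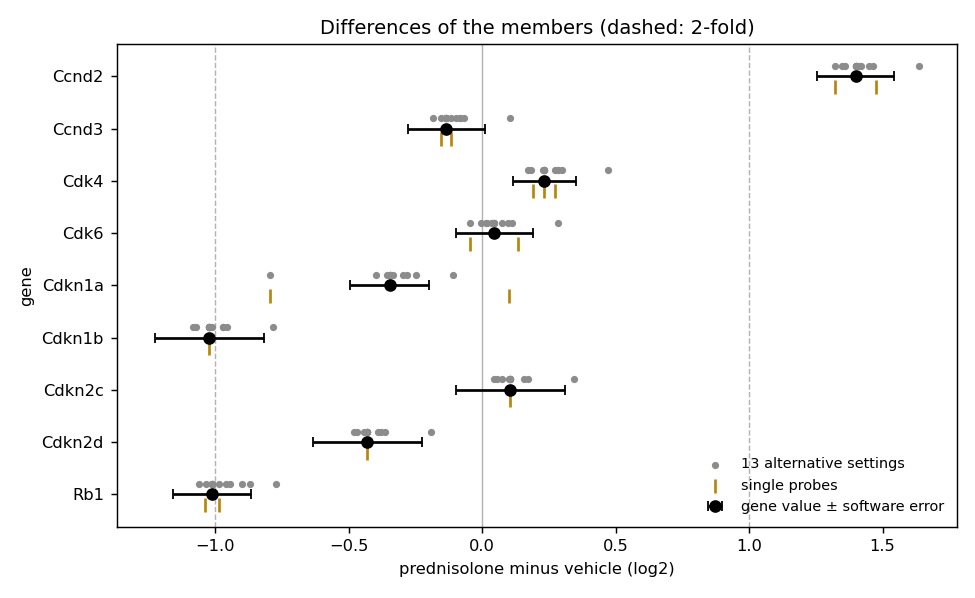
Log2 difference, prednisolone minus vehicle, of the 9 members with a value, with the software's error (black), the probes in use (gold) and the 13 other settings (grey); dashed lines mark 2-fold. Ccnd2 at 1.40 stays beyond 2-fold throughout, Cdkn1b at −1.02 and Rb1 at −1.01 lie on the lower line, and the probes of Cdkn1a lie 0.89 apart.

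**Figure D3:**
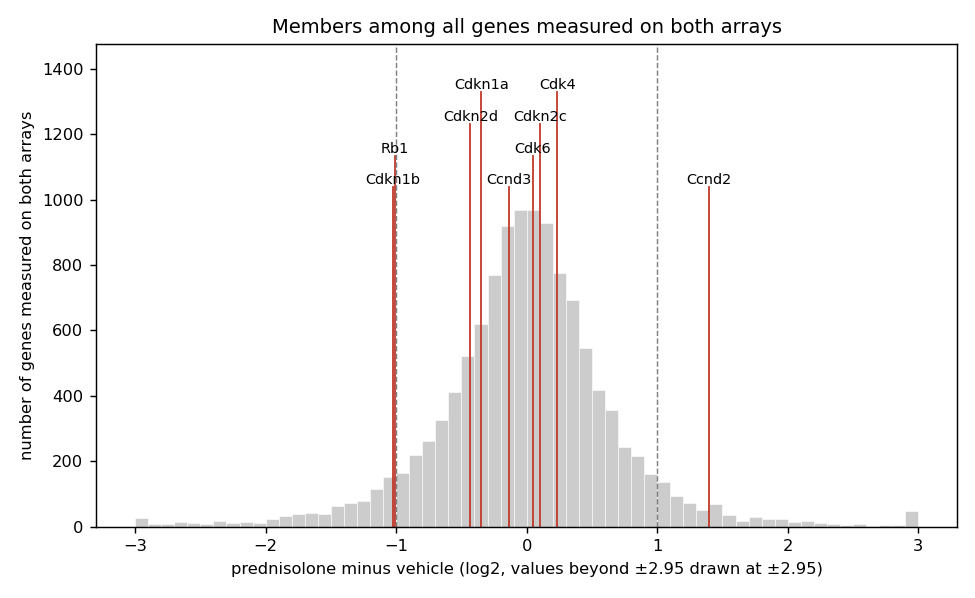
The number of genes by log2 difference, prednisolone minus vehicle, for the 11968 genes measured on both arrays, with the 9 members as red lines and 2-fold as dashed lines. Ccnd2 lies in the upper tail, with 2.78% of genes above it, Cdkn1b and Rb1 lie in the lower tail, with 6.28% and 6.47% of genes below them, and the other members lie in the body.

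Of the remaining CDK inhibitor genes, which are no members, all 3 were at least 2-fold apart, 2 higher and 1 lower. Of all genes with a value, 6.87% were higher and 7.82% lower by that much. This list of 3 was chosen with earlier results of these data known. Cdkn2a, whose transcripts encode the INK4 protein p16 and, in another reading frame, the p53 activator ARF, was 2.55 ± 0.15, a 5.86-fold higher level. Its brighter probe had 4697 with prednisolone and 820.2 with vehicle, and its dimmer probe had 312.9 with prednisolone and 56.0 with vehicle. Both probes are listed under the same accession, so the transcripts were not told apart. Cdkn2b, its neighbour, which encodes the INK4 protein p15, was 1.83 ± 0.14, or 3.57-fold higher. Its probes had 990.4 and 948.1 with prednisolone, against 284.3 and 278.1 with vehicle. Cdkn1c, which encodes the CIP/KIP protein p57, was lower at −1.05 ± 0.22 on a dim probe (52.0 with prednisolone and 111.1 with vehicle), and −0.54 after normexp. It was at least 2-fold lower under only 8 of the 13 other settings. The settings for flags, the filter on dim probes and the choice of probe left its single probe unchanged. Of the rest, only no scaling and quantile normalization kept it at least 2-fold lower. The INK4 genes thus spanned 0.10 and −0.43 for the member genes Cdkn2c and Cdkn2d, and 2.55 and 1.83 for Cdkn2a and Cdkn2b.

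The partners of the pathway downstream of the D cyclins are given from lists of known genes. Among G1/S cyclins, kinases and activators, 1 of 9 with a value was at least 2-fold higher and none lower. Over all genes with a value the shares were 6.87% higher and 7.82% lower. The median over the 8 genes of this list measured on both arrays was 0.14. The higher gene was Ccne1, at 1.16 ± 0.20 (signals of 7751 with prednisolone and 3598 with vehicle). It encodes cyclin E1, which partners CDK2 after the D cyclins. For Ccne2, named after its value was seen, only the prednisolone array was well above background (22.2 with prednisolone and 9.54 with vehicle), and it was at least 1.79-fold higher. After normexp the bound was a log2 difference of only 0.27, so its size depends on the background correction. Of 11 pocket proteins, E2F and DP factors with a value, none was 2-fold apart, and the median was 0.43. E2f2, an activating E2F, was highest at 0.96 ± 0.14, and Rbl2, the gene of the pocket protein p130 of resting cells, was lowest at −0.52 ± 0.21. Rb1 thus lay below both other pocket protein genes, with Rbl1, named after its value was seen, at 0.0035 ± 0.12.

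Of 20 E2F target genes of S phase entry with a value, 18 were above 0 (20 under spike-in scaling). Their median was 0.50, against 0.0014 for all genes measured on both arrays. Orc1, a subunit of the origin recognition complex, was the 1 member of that list at least 2-fold higher, at 1.25 ± 0.15. None was 2-fold lower, against shares of 6.87% higher and 7.82% lower over all genes with a value. Mitotic proliferation genes had 7 of 10 below 0 (4 under spike-in scaling) and a median of −0.09, with none 2-fold apart. In that list the transcription factor gene Mybl2, an E2F target, was 0.81 ± 0.20 and the checkpoint kinase gene Bub1 was −0.50 ± 0.20. Spike-in scaling adds 0.24 to every difference, so it raises the count above 0 in any list. Under it the medians were 0.74 for the E2F targets and 0.15 for the mitotic genes, against 0.24 for all genes.

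Among 11 genes for turnover of D cyclins and p27 with a value, the median was 0.12. Fbxo31, which encodes an F-box protein reported to direct cyclin D1 to degradation, was the 1 at least 2-fold higher, at 1.15 ± 0.20. Skp2, whose F-box protein marks p27 for degradation, had only a probe with an outlier flag, at 0.87 (signals of 228.8 with prednisolone and 129.2 with vehicle). Of 18 upstream regulators with a value, none was 2-fold apart and the median was 0.18. Myc, whose protein activates Ccnd2 and Cdk4, was highest at 0.81 ± 0.14, and Mxd4, which encodes an antagonist of MYC, was lowest at −0.67 ± 0.22 on a dim probe. After normexp Mxd4 was −0.31, and Stat5b (−0.64 ± 0.20, named after its value was seen) was lowest at −0.62. Klf2, a quiescence factor of T cells, had only a probe with an outlier flag, at 1.996 (16148 with prednisolone and 4190 with vehicle). Skp2 and Klf2 were named after their values were seen. Across the 7 lists 82 genes had a value, of which 5 (6.10%) were higher and 1 (1.22%) lower by 2-fold or more, against 6.87% and 7.82% of all genes. Under spike-in scaling 12 of them (14.6%) were higher, against 10.9% of all genes.

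**Figure D4:**
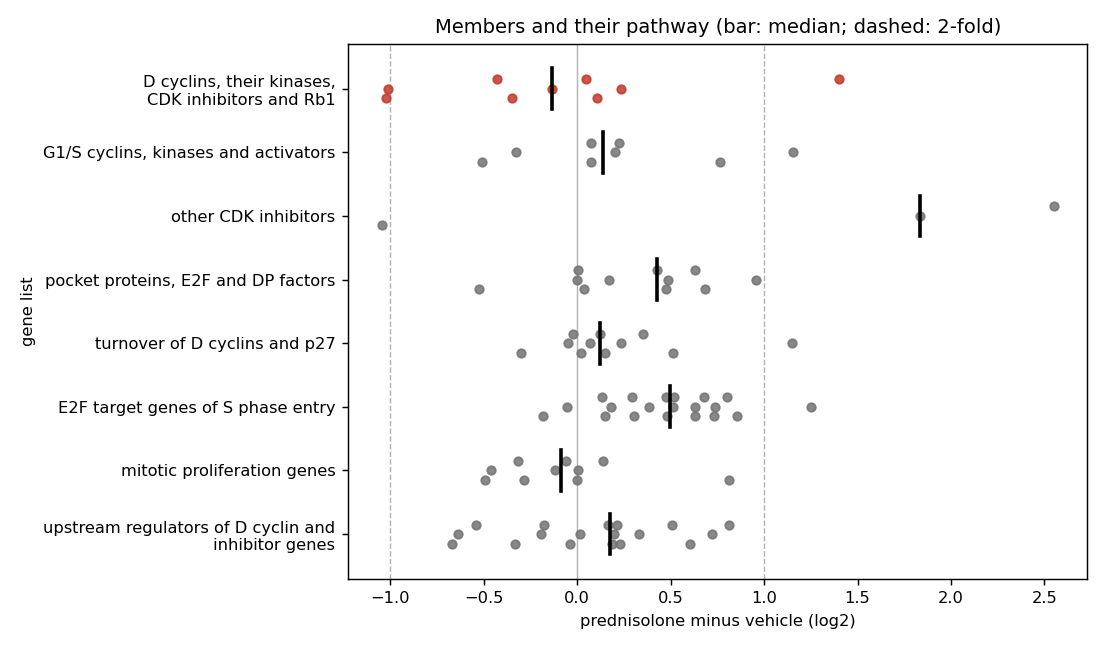
Log2 difference, prednisolone minus vehicle, of each gene measured on both arrays in the D cyclin group (red, 9 genes) and in the 7 pathway lists (grey), with the list's median as a bar and 2-fold as dashed lines. E2F targets lie mostly to the right (median 0.50), mitotic genes about 0 (median −0.09), and Cdkn2a and Cdkn2b lie farthest right among the inhibitors.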

How the data were processed

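Gene expression was measured on 2 Agilent 1-colour arrays, 1 of CD8 T cells given prednisolone and 1 of cells given vehicle. The deposited scanner files hold linear intensity values from Agilent Feature Extraction 12.0.3.1, per the file headers, already background-subtracted and detrended within each array but not scaled between arrays. The flags in the deposited files are yes-or-no values. A further table of deposited intensity values is the processed signal times 1 constant per array (0.858 for prednisolone and 0.792 for vehicle), on a linear scale, uncentred, with medians of 16.4 for prednisolone and 16.2 for vehicle. The choice of these constants is not stated in the labels or headers.

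Of 59305 non-control spots, 53.5% were well above background on each array and none was saturated. Both arrays lie on 1 slide with 1 scan date. The difference was log2 processed signal minus each array's 75th percentile, prednisolone minus vehicle. Control spots were left out, as were spots with an outlier flag of the spot or its local background (8.92% of spots with prednisolone and 7.20% with vehicle). A gene is the mean of its probes well above background on both arrays. Where 1 array only was well above background, a bound against the lowest such signal is written "at least N-fold". Accessions without version were matched to RefSeq (GRCm38.p6), naming 33767 of 56605 probes; the headers name build mm9, so no positions of probes or genes are given, and the coordinates of promoter windows are those of the RefSeq table. A difference of at least 2-fold was counted. The number of arrays limits the precision, and there are no p-values. The calculation was tested on simulated data. Python 3.11.15, R 4.3.3 and limma 3.58.1 (normexp with an offset of 50, quantile normalization) were used.

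The members and lists were chosen with earlier results of these data known. All 10 members were described; of each list, those at least 2-fold apart were named, or else its highest and lowest. There were 12 alternatives set beforehand and 1 added later. The files hold median and not mean spot signals, so background alternatives used the median signal.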

Additional observations from a re-analysis of the deposited data

How the results depend on the processing

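No paired analysis was possible because each culture had 1 array. The number of members at least 2-fold apart was 3, of which 1 was higher and 2 lower. It was 1 (0 lower) with the median signal minus local background, with median scaling, with spike-in scaling and with the authors' value table. With normexp and with the brightest probe alone 1 was lower. Ccnd2 was the member at least 2-fold higher under every setting. Cdkn1b and Rb1 stayed below 0 under all 13 alternatives, and the members' median, −0.13, was −0.18 without scaling and 0.10 under spike-in scaling. Keeping the spots with a flag of the local background only, an alternative chosen after seeing the data, left 3 members apart. The flag and dim-probe settings drop or add no probe of these 3, so none of those settings could change their values.

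Under spike-in scaling the median of all genes was 0.24, and 68.0% of the genes beyond 2-fold were higher, against 46.8%. After normexp 429 genes were at least 2-fold higher and 434 lower, against 902 and 1027. Among the pathway lists, 12 genes were higher under spike-in scaling, against 5, with 10.9% of all genes higher there. Cdkn1c, the 1 lower gene of those lists, was within 2-fold after normexp, with median signal minus local background, and with median, spike-in or the authors' scaling. The causes were not tested. Dim probes (Ccnd1, Ccne2, Cdkn1c, Mxd4 and the second Cdkn1a probe) limit what can be read for these genes.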
